A study of Mus musculus with 20 samples.

Results

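The kidneys examined here were those of mice killed 3 d after long bilateral renal ischemia, and the question was how the fraction of each cell cluster differed from control kidneys. Cells were chosen by their deposited treatment label, IRI long at day 3, and all 18 clusters of the authors' main annotation were followed. The chosen cells numbered 6848, in 2 libraries of 4784 (IRF4) and 2064 cells (IRF7), of 113579 cells in 18 libraries. Control held 37872 cells in 6 libraries, norm1 to norm5 and Scl, with 2272 to 14320 cells each.

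All animals were male C57Bl/6J mice of 10 to 12 weeks. In IRI long both renal pedicles were clamped for 30 min, in IRI short for 23 min, and mice were killed 1, 3 or 14 d later. Ischemia was bilateral, so no kidney of the same animal served as its own control, and the labels give the control libraries neither an ischemia time nor a day. Each library was taken as 1 mouse, so a p-value here measures the spread between these libraries. Kidneys were perfused and digested to single cells, which were captured with the 10X 3′ chemistry.

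The proximal tubule reclaims most of the filtered salt, glucose and amino acids. Its segments, above all the straight S3 segment in the outer medulla, are known for their sensitivity to a loss of oxygen. After ischemia neutrophils and monocytes enter the kidney from blood, and monocytes can become macrophages that clear dead cells and take part in repair. Because the fractions of a library add up to 100%, a rise in one cluster lowers the fraction of every other, and the number of cells in the kidney was not measured.

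The cell barcodes form 2 sets, a division not found in the sample labels. Any pair among norm1 to norm4 and Scl had 9 to 128 barcodes in common. Pairs among norm5, IRF4 and IRF7 had 2 to 10 in common, and pairs with 1 library from each side had 0 to 3. Norm5 was therefore the single control library on the side of IRF4 and IRF7, and its values stand beside the results. Apart from norm5, barcode set and ischemia cannot be told apart. Cluster names are those the authors gave, and marker genes were not analysed here.

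Of 18 clusters, 16 differed from control at an adjusted p under 0.05 (88.9% of those tested), with 11 higher (61.1%) and 5 lower (27.8%) 3 d after long ischemia. Immune cells made up 72.2% of IRF4 and 70.1% of IRF7, compared with 6.11 to 17.8% of control libraries. In a second annotation by the authors, described below, immune cells by name were 46.6% ± 6.19 (n = 2) against 7.92% ± 3.60 (n = 6), or 63.3% ± 0.14 against 9.16% ± 3.69 with the cluster Fibro counted as myeloid. The tubule clusters PT S1, PT S3, LOH, DCT and IC were lower, and the granulocyte, monocyte, macrophage, endothelial, myofibroblast, podocyte, B cell and T cell_2 clusters were higher. Of the T cell_2 cells of IRI long, 25.5% were named T cell or NK in the second annotation. The fraction of those cells lay within the control range. In 14 clusters both IRI long libraries lay outside the range of all 6 control libraries, 9 above and 5 below it. PC, Podo, T cell_1 and T cell_2 overlapped with control. These comparisons used limma on the logit of each fraction, the log of the odds that a cell belongs to the cluster, with the spread estimated from all 18 libraries. On a scale relative to the average cluster (centred log-ratio), 14 clusters differed, with 7 higher and 7 lower, so the share of higher calls depends on the scale.

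**Figure D1:**
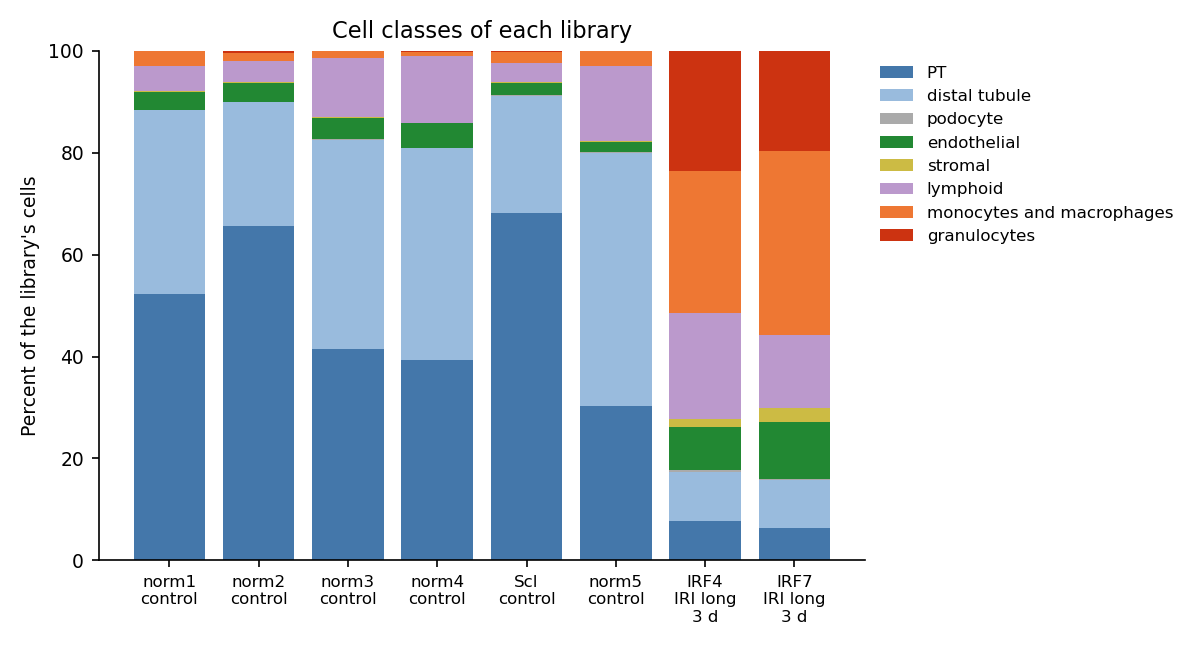
Each bar is 1 library, control or IRI long at 3 d, and its segments give the percent of the library's cells in each cell class, classes being clusters grouped by name. PT and distal tubule fill most of each control bar, while immune classes fill 72.2% of the IRF4 bar and 70.1% of the IRF7 bar.

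Both proximal tubule clusters fell. PT cells, that is PT S1 and PT S3 together, were 7.65% of IRF4 and 6.35% of IRF7, and 30.3 to 68.1% of control libraries. The mean fell from 49.5% ± 15.1 (SD, n = 6) to 7.0% ± 0.92 (n = 2), a 7.08-fold lower fraction (exact permutation p = 0.0357, adjusted p = 0.0417 over 7 classes). A p of 0.0357 is the smallest that 28 placements of 2 libraries among 8 can give. Norm5 had the lowest PT fraction of all control libraries, and the difference against norm5 alone was −23.3 percentage points in place of −42.5. The fall of the distal tubule was the larger one against norm5 alone, −40.0 percentage points in place of −26.4. In the authors' second annotation, described below, PT cells were 12.8% ± 0.99 against 50.3% ± 13.4, a 3.94-fold lower fraction.

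PT S3, the straight segment, was 4.14% of IRF4 and 2.33% of IRF7, against a control range of 11.5 to 43.2% with a median of 28.7%. No control library was as low as either IRI long library. The fraction was 9.16-fold lower, a logit change of −2.50 ± 0.43 (SE, limma adjusted p = 3.11e-05). The lowest control value was that of norm5, and the change against norm5 alone was −1.39.

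PT S1, the first part of the convoluted segment, was 3.51% of IRF4 and 4.02% of IRF7, compared with 11.3 to 27.0% and a median of 21.9% in control. The groups did not overlap, and the fraction was 5.29-fold lower, by a logit change of −1.79 ± 0.38 (limma adjusted p = 0.000285). Within PT cells S1 made up 45.9% of IRF4 and 63.4% of IRF7, and 28.7 to 62.1% in control. The mean share, 54.6% against 41.0% ± 12.7 (SD, n = 6), differed without passing the threshold (exact permutation p = 0.25, adjusted over 8 shares p = 0.381), and against norm5 alone, at 62.1%, its direction turned.

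Distal segments fell together except for the principal cells. LOH, the loop of Henle that builds the medullary salt gradient, was 4.22% of IRF4 and 4.36% of IRF7, below all control libraries (10.1 to 27.5%, median 17.3%). DCT, the distal convoluted tubule that fine-tunes sodium and magnesium reabsorption, was 2.11 and 1.60%, also below the control range of 4.90 to 15.4% (median 11.3%). LOH was 3.92-fold lower, with a logit change of −1.45 ± 0.36 (limma adjusted p = 0.00112), and DCT 5.62-fold lower, with −1.75 ± 0.35 (limma adjusted p = 0.000174). Both were highest in norm5.

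Of the collecting duct clusters 1 passed the threshold. IC, the intercalated cells that secrete acid or base, was 0.63% of IRF4 and 0.29% of IRF7, below every control library (2.19 to 8.31%, median 3.40%). It was 10.2-fold lower, with a logit change of −2.27 ± 0.41 (limma adjusted p = 5.61e-05), and 16.1-fold lower without IRF4. It rests on 36 cells in the IRI long libraries. PC, the principal cells that reabsorb water and sodium under vasopressin and aldosterone, was 2.65 and 3.15%, next to and within the control range of 2.68 to 5.85%, respectively. Its logit change of −0.30, with a 95% interval from −1.02 to 0.43, missed the threshold (limma adjusted p = 0.425). Of PC and IC cells together, IC made up 19.1% in IRF4 and 8.45% in IRF7, lower than in any control library (33.2 to 74.9%). That difference of means, 13.8% against 51.2% ± 18.9 (SD, n = 6), had an exact permutation p of 0.0714 and an adjusted p of 0.143.

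Podo, the podocytes of the glomerular filter, was a small cluster in all libraries. It held 19 cells in IRF4 (0.40%) and 5 in IRF7 (0.24%), and 0 to 0.29% of control libraries. IRF7 lay below norm5, so the groups overlapped. The logit change of 1.63 ± 0.71 passed the threshold (limma adjusted p = 0.0380), but not without IRF4, IRF7, norm1, norm2 or norm4 (adjusted p for Podo = 0.186 without IRF4), and against norm5 alone it was 0.12.

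Both endothelial clusters rose. GEC, a cluster that by its name holds glomerular endothelial cells, was 5.85% of IRF4 and 8.04% of IRF7, above all control libraries (1.89 to 4.71%, median 3.17%). It was 2.19-fold higher, by a logit change of 0.86 ± 0.32 (limma adjusted p = 0.0176). Without IRF7 the change of GEC was 0.69 with an adjusted p of 0.14, and relative to the average cluster it was −0.42. Endo, the other endothelial cluster, was 2.63 and 3.10%, and 0.075 to 0.50% in control (median 0.17%). It rose by 11.3-fold (logit change 2.63 ± 0.42, limma adjusted p = 1.87e-05). Norm5 had the lowest Endo fraction of the control libraries. GEC was 69.0% of endothelial cells in IRF4 and 72.2% in IRF7, lower than in every control library (86.6 to 97.0%), with an exact permutation p of 0.0357 and an adjusted p of 0.0952.

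Myofib, named for the contractile cells that lay down matrix, was 1.63% of IRF4 and 2.81% of IRF7, well apart from the control range of 0.074 to 0.31% (median 0.14%). It was 13.7-fold higher, by a logit change of 2.64 ± 0.35 (limma adjusted p = 1.74e-06). The cells behind it were 136 in IRI long and 53 in control, and the authors' second annotation, described below, gave many of them another name.

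**Figure D2:**
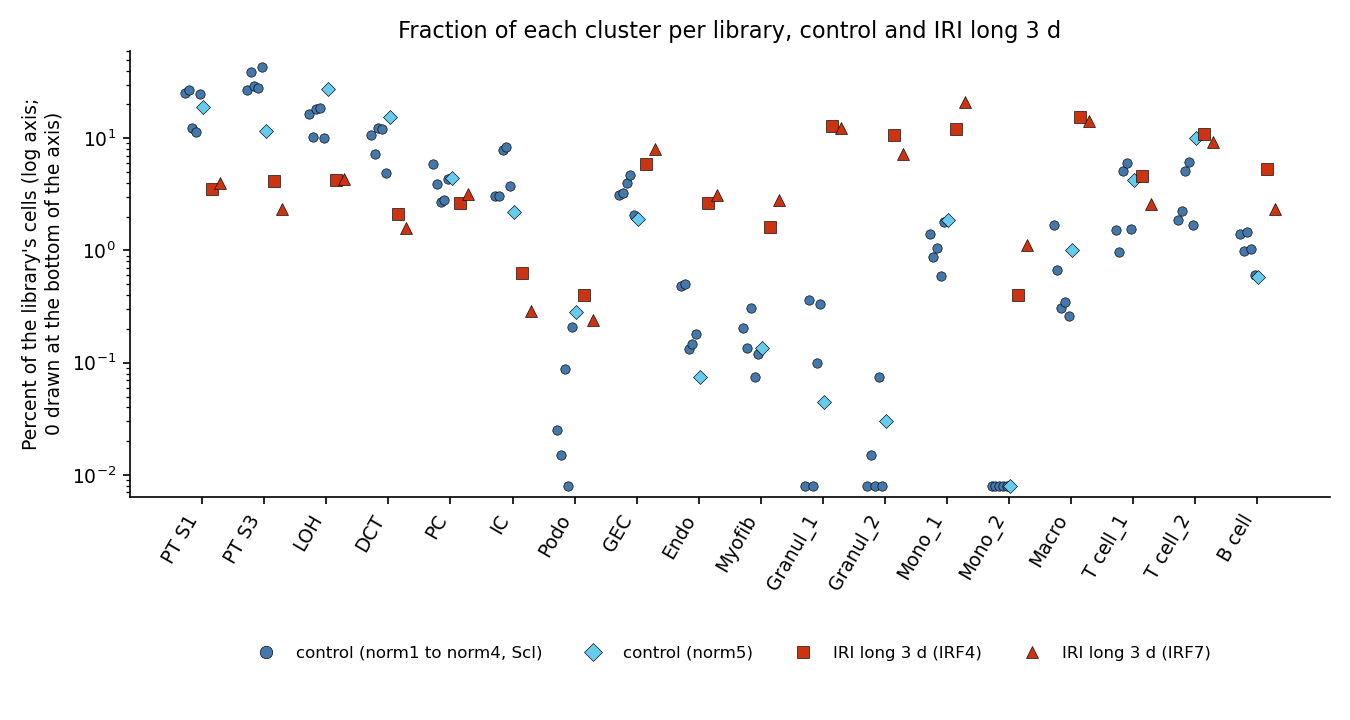
Each symbol is the percent of 1 library's cells (log axis, 0 drawn at the bottom) in 1 of the 18 clusters, for 6 control libraries (norm5 apart) and the IRI long 3 d libraries IRF4 and IRF7. The red symbols lie below all blue ones in PT S1, PT S3, LOH, DCT and IC, above all of them in 9 clusters, and in PC, Podo, T cell_1 and T cell_2 at least 1 red symbol lies within the range of the blue ones.

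Granulocytes, the short-lived first responders of innate immunity, rose from near absence in control. Together they were 23.6% of IRF4 and 19.6% of IRF7, and 0 to 0.38% of control libraries (exact permutation p = 0.0357, adjusted p = 0.0417). Granul_1 was 12.9 and 12.4% in the IRI long libraries and 0 to 0.36% in control, where norm1 and norm3 held none. It was 90.3-fold higher, with a logit change of 5.24 ± 0.66 (limma adjusted p = 1.04e-06). Granul_2 was 10.7 and 7.22%, whereas all control libraries together held 6 such cells (0 to 0.074%). Its logit change of 6.16 ± 0.59 was the largest of all clusters (limma adjusted p = 7.36e-08), a 451-fold higher mean whose size rests on those few control cells and was 992-fold without norm4. Granul_2 made up 45.2 and 36.8% of granulocytes in IRF4 and IRF7. In control Granul_2 was 3 of 7 granulocytes in norm4, 2 of 5 in norm5, 1 of 25 in norm2 and 0 of 48 in Scl. Only norm2 and Scl had at least 10 granulocytes and entered the test, a comparison of 2 against 2 libraries in which no exact permutation p can be under 0.333.

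Monocytes and macrophages were 27.8% of IRF4 and 36.2% of IRF7, and 0.94 to 3.06% of control libraries. The mean rose from 1.97% ± 0.85 to 32.0% ± 5.95 (exact permutation p = 0.0357, adjusted p = 0.0417). In the second annotation they were 15.1% ± 0.37 against 0.71% ± 0.55 by name, and 31.8% ± 6.42 against 1.95% ± 0.79 with Fibro counted. Macro, the tissue phagocytes, was 15.3 and 14.3%, compared with 0.26 to 1.67% in control (median 0.50%). It was 20.9-fold higher (logit change 3.40 ± 0.41, limma adjusted p = 7.30e-07), and the exact 95% binomial intervals of the IRI long libraries overlapped.

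Mono_1 was 12.1% of IRF4 and 20.8% of IRF7, against 0.59 to 1.86% in control (median 1.22%). It was 13.1-fold higher, with a logit change of 2.77 ± 0.35 (limma adjusted p = 1.04e-06). Norm5 had the highest control value. Mono_2 was 0.40 and 1.11%, 19 and 23 cells, with 0 of 37872 cells in control, a count that allows at most 0.00792%. Over pooled cells the fraction was at least 77.4-fold higher, against the limit of 3 cells over the whole control group, and at least 50.1-fold higher without IRF7 or 141-fold without IRF4. These bounds cover counting error only and pool the control libraries, with 14320 of the cells from Scl. For a single control library the limit of 3 cells is higher, up to 0.13% in norm3, so the bound is then lower. Macro made up 54.9 and 39.4% of monocytes and macrophages, which overlapped with the 12.6 to 54.5% in control (exact permutation p = 0.286, adjusted p = 0.381).

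Lymphoid cells, which carry adaptive immunity, overlapped with control as a class. They were 20.8% of IRF4 and 14.2% of IRF7, and IRF7 lay within the control range of 3.85 to 14.8%. The difference of 8.77 percentage points had an exact permutation p of 0.143. It was 2.85 points in the second annotation (9.85% ± 3.72 against 7.0% ± 3.81, exact permutation p = 0.429) and 3.17 points without T cell_2. B cell, the antibody lineage, was 5.27 and 2.33%, above all control libraries (0.59 to 1.45%, median 1.01%). It was 3.76-fold higher, by a logit change of 1.33 ± 0.34 (limma adjusted p = 0.00126). Without IRF4 it was 2.30-fold higher, a logit change of 0.91 with an adjusted p of 0.0652 for B cell.

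T cell_1 was 4.60% of IRF4 and 2.62% of IRF7, inside the control range of 0.97 to 5.97%. Its logit change of 0.30, with a 95% interval from −0.63 to 1.23, missed the threshold (limma adjusted p = 0.505). T cell_2 was 10.9 and 9.25%, and control libraries ran from 1.69 to 9.98%, so IRF7 lay below norm5. The logit change of 1.09 ± 0.47 passed the threshold (limma adjusted p = 0.0380), but leaving out any 1 of IRF4, IRF7, norm1, norm2 and Scl ended the call of T cell_2 (adjusted p = 0.167 without IRF4), and against norm5 alone the change was 0.01. T cell_2 cells also named T cell or NK in the second annotation were 139 of 4784 cells in IRF4 and 43 of 2064 in IRF7. Both fractions lay within the control range, from 38 of 3949 in norm1 to 432 of 6666 in norm5. That count was chosen after the data were seen. T cell_1 was 29.6 and 22.0% of T cells, against 30.0 to 50.0% in control (exact permutation p = 0.0357, adjusted p = 0.0952). This direction turned, to a difference of 4.45 percentage points in place of −16.3, over cells named T cell or NK in the second annotation, a name held by 25.5% of the T cell_2 cells of IRI long.

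The myeloid share of immune cells was higher in both IRI long libraries than in any control library. Granulocytes, monocytes and macrophages were 71.2% of the immune cells of IRF4 and 79.7% of those of IRF7, and 7.81 to 39.2% in control, with 16.5% in norm5. The means were 75.5% ± 6.02 (n = 2) and 24.0% ± 14.0 (n = 6), an exact permutation p of 0.0357 that was 0.0952 after adjustment over 8 shares. None of the 8 shares within a class passed the threshold after adjustment, and 3 had an unadjusted p under 0.05, the smallest this design allows.

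To set the fall of tubule cells apart from the rise of immune cells, immune clusters were also counted per immune cell and all others per non-immune cell. T cell_2 counts as immune here. Yet the second annotation, described below, named 246 of its 522 cells in IRF4 PT, 80 of 191 in IRF7 and 321 of 1490 in control. PT S1 and PT S3 together held 366 cells in IRF4 and 131 in IRF7, so the separation is not complete. Counting those T cell_2 cells as PT was not tested. On this scale 13 clusters differed, 9 higher and 4 lower, and 11 of them were among the 16 found per cell of the library. Of these 11, T cell_2 was higher per cell of the library and lower on this scale. PT S3 still fell, from 32.8% ± 11.1 of non-immune cells in control to 14.9% in IRF4 and 7.77% in IRF7 (logit change −1.33, limma adjusted p = 0.0113). Norm5, at 14.0%, lay below IRF4, so the groups overlapped on this scale. IC fell from 5.31% ± 3.14 to 2.26 and 0.97% (−1.14, limma adjusted p = 0.0146). PT S1 (−0.59), LOH (−0.23) and DCT (−0.59) did not pass the threshold. PC was now higher, 9.56 and 10.5% of non-immune cells against 3.08 to 6.35% in control (logit change 0.90, limma adjusted p = 0.0186).

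Among non-immune cells the endothelial, myofibroblast and podocyte clusters were higher. GEC was 21.1 and 26.9% of the non-immune cells in IRF4 and IRF7, compared with 2.20 to 5.49% in control (logit change 2.19, limma adjusted p = 1.34e-05). Endo was 9.48 and 10.4% against 0.091 to 0.53%, and Myofib 5.87 and 9.39% against 0.086 to 0.35%, without overlap in either. Podo, at 1.43 and 0.81% against 0 to 0.35%, did not overlap with control on this scale either (logit change 2.77, limma adjusted p = 0.00168).

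Among immune cells the T cell clusters were lower. T cell_1 was 6.37% of the immune cells in IRF4 and 3.73% in IRF7, and 15.8 to 42.0% in control (logit change −1.95, limma adjusted p = 0.000214). T cell_2 was 15.1 and 13.2%, below the control range of 23.6 to 56.1% (−1.27, limma adjusted p = 0.00814). These T cell_2 values include the cells named PT in the second annotation. B cell (−0.73) and Mono_1 (0.75) did not pass the threshold, while Granul_1, Granul_2, Mono_2 and Macro remained higher by the test. Macro was 21.2 and 20.4% of immune cells, both inside the control range of 2.38 to 21.4%, whose highest library was norm1. The direction for both T cell clusters thus depends on the denominator.

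**Figure D3:**
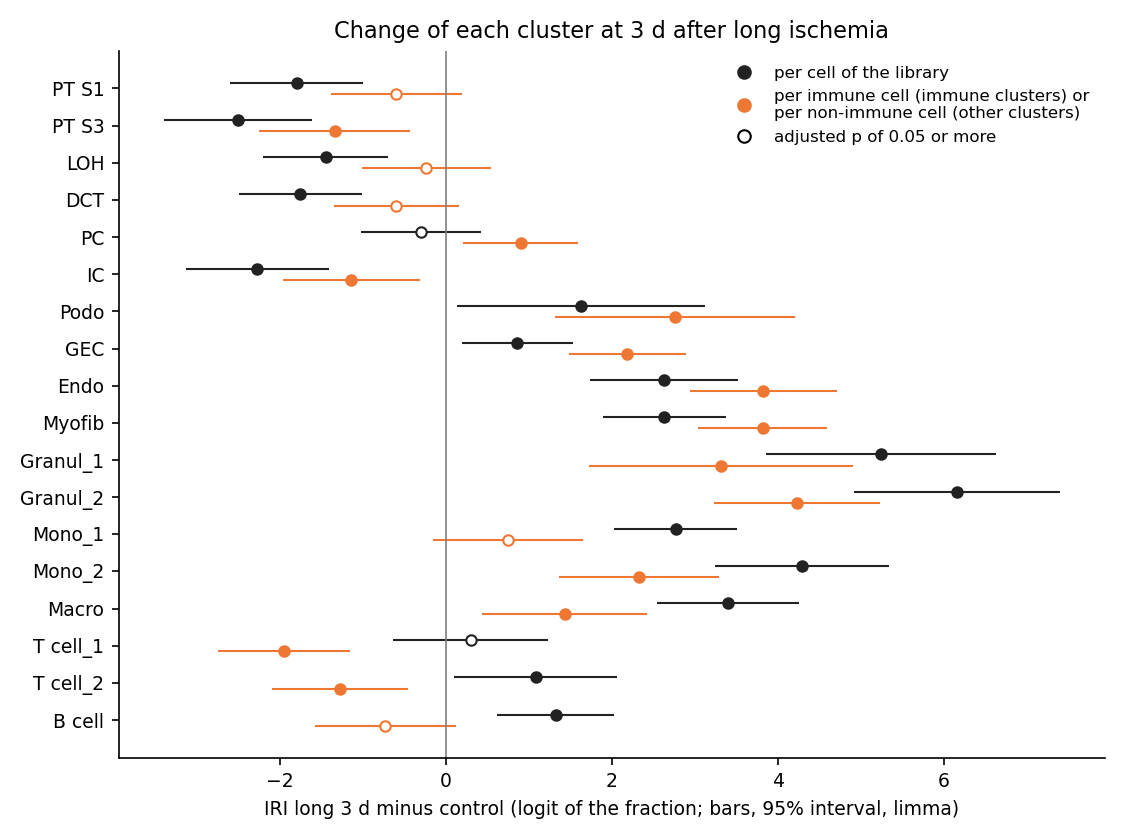
Points give the logit change of each cluster, IRI long 3 d minus control, with 95% intervals from limma; black is per cell of the library, orange per immune cell (immune clusters) or per non-immune cell (other clusters), and open points have an adjusted p of 0.05 or more. For T cell_1, T cell_2 and B cell the orange point lies on the other side of 0 from the black one, as it does for PC.

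Against norm5 alone several folds moved by more than 1.5 times with their direction kept. PT S3 was then 3.56-fold and IC 4.77-fold lower, and LOH 6.40-fold lower. Endo was 38.2-fold, Granul_1 282-fold, Granul_2 298-fold, B cell 6.49-fold and GEC 3.68-fold higher.

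The libraries IRF4 and IRF7 differed from each other by more than counting error in 8 of 18 clusters, where their exact 95% binomial (Clopper-Pearson) intervals did not overlap. These intervals cover counting error only. IRF7 held more Mono_1, with 20.8% (19.1 to 22.7%) against 12.1% (11.2 to 13.1%), and more GEC, Myofib and Mono_2. IRF4 held more B cell, with 5.27% (4.65 to 5.94%) against 2.33% (1.72 to 3.07%), and more PT S3, Granul_2 and T cell_1. The ratio was highest for Mono_2, 2.81-fold higher in IRF7.

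How day 3 differed from the neighbouring groups was examined with the same fit. Between 3 and 1 d after long ischemia 1 of 18 clusters passed the threshold (5.56%). Mono_2 was 0.16 and 0.025% in the libraries at 1 d (IRF1 and IRF5) and 0.40 and 1.11% at 3 d, higher without overlap (logit change 2.23 ± 0.61, limma adjusted p = 0.0339). The 1 d values are 10 and 2 cells. The call of Mono_2 was lost without IRF5 or without IRF7.

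Against 14 d after long ischemia 4 clusters passed (22.2%), all higher at 3 d. Counted per non-immune cell, PT S3 also passed and was lower at 3 d (logit change −1.51, limma adjusted p = 0.0373). Its 14 d side holds many cells that the second annotation, described below, gave another class. The PT class was kept by 88 of 673 PT S3 cells of IRF12 and 237 of 366 of IRF9. At 3 d it was kept by 178 of 198 in IRF4 and 46 of 48 in IRF7. Myofib was 0.028 and 0.014% at 14 d (IRF12 and IRF9), below the 1.63 and 2.81% at 3 d, with a logit change of 4.40 ± 0.43 (limma adjusted p = 1.06e-07). The 14 d values are 2 and 1 cells, so the size of this change rests on very few cells. PC was 0.45 and 0.65% at 14 d against 2.65 and 3.15% at 3 d (logit change 1.69, limma adjusted p = 0.00729). Endo was 0.30 and 0.68% against 2.63 and 3.10% (logit change 1.86, limma adjusted p = 0.0126), and Mono_2 was 0.071 and 0.11% against 0.40 and 1.11% (1.97, limma adjusted p = 0.0216). The 14 d values of Mono_2 are 5 and 8 cells. The groups were apart in all 4 clusters. The calls of PC, Endo and Mono_2 did not hold without IRF12 or without IRF7, where 1 cluster passed, and that of Mono_2 did not hold without IRF9.

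Between long and short ischemia at 3 d limma called 0 of 18 clusters (0%), with 3 at an unadjusted p under 0.05. The smallest p was that of DCT, which was 2.11 and 1.60% after long and 6.44 and 6.12% after short ischemia (IRF3 and IRF11), without overlap (logit change −1.27, 95% interval −2.17 to −0.36, limma adjusted p = 0.159). The other two, named after their values were seen, were LOH with a change of −0.96 (−1.88 to −0.04) and Mono_1 with 1.00 (0.10 to 1.91).

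**Figure D4:**
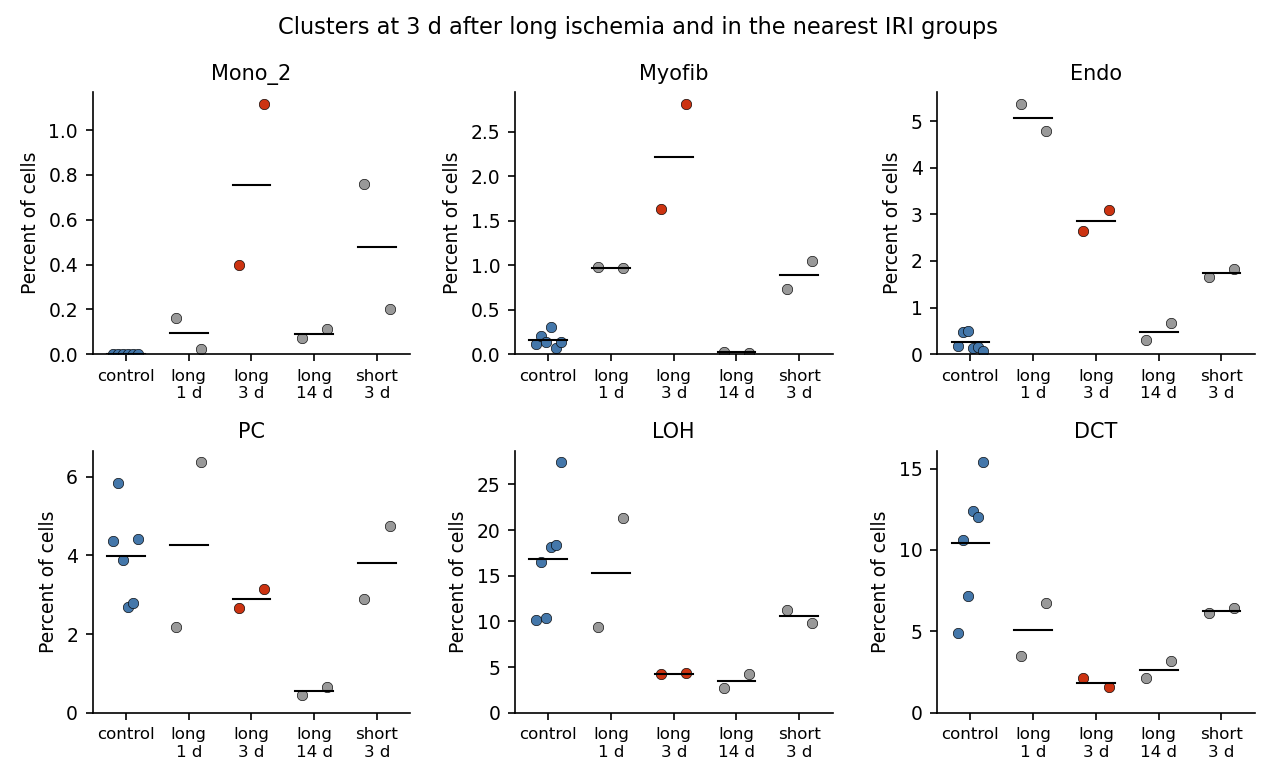
Percent of all cells in 6 clusters (1 panel each), with 1 point per library and a line at the group mean, for control, IRI long at 1, 3 and 14 d and IRI short at 3 d. At 3 d after long ischemia Myofib lies between 1.63 and 2.81%, above all other groups shown, and DCT between 1.60 and 2.11%, below the control and short ischemia libraries.

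The authors also deposited a second annotation that includes 2 inhibitor-treated libraries and names 19 clusters. Over the same 18 libraries 15 of them differed between IRI long 3 d and control (78.9%), with 8 higher (42.1%) and 7 lower (36.8%). Neutro_1 (logit change 4.64) and Neutro_2 (5.72) rose to 12.0% ± 0.88 and 9.67% ± 1.96, and together they hold nearly all Granul_1 and Granul_2 cells. GEC, Endo, a single endothelial cluster there, rose from 3.50% ± 1.16 to 9.80% ± 1.77 (1.14, limma adjusted p = 0.00185). The proximal clusters PCT (−1.64), PST (−1.95) and PT (−0.97) fell, PST for example from 22.5% ± 7.29 to 3.82% ± 0.70. DCT1 (−2.03), DCT1, DCT2 (−1.93), CD-IC (−2.10) and DCT2, CNT, CD-PC (−0.97) fell too, whereas LOH, at 3.49% in IRF4 and 3.68% in IRF7 within the control range of 2.60 to 14.2%, was not called (logit change −0.66, limma adjusted p = 0.140).

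The main names and the second names did not always meet. The class given by name was the same in both annotations for 75.8% of IRF4 and 66.9% of IRF7 cells, and for 88.2% (norm5) to 96.0% (Scl) of control cells. The cluster Fibro, whose name stands for fibroblasts, held 94.7% of the Mono_1 cells of IRF4, 94.4% of those of IRF7 and 93.2% of those in control. Fibro rose from 1.24% ± 0.56 to 16.7% ± 6.05 (logit change 2.81, limma adjusted p = 1.50e-06). Counting Fibro with the monocytes, a choice made after the data were seen, brought the agreement to 87.8% in IRF4 and 87.5% in IRF7. SMC, the second annotation's smooth muscle cluster, rose from 0.43% ± 0.23 to 3.81% ± 0.79 (2.29, limma adjusted p = 3.59e-05). It held 79.5% of the Myofib cells of IRF4 and 39.7% of those of IRF7, where 37.9% were named PST. In control 28.3% of Myofib cells were named SMC.

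T cell_2 cells also carried other names in IRI long. Of its cells 26.6% of its cells in IRF4 and 22.5% in IRF7 were named T cell or NK in the second annotation, while 47.1 and 41.9% were named PT. In control libraries 43.9 to 93.4% of T cell_2 cells were named T cell or NK and 0.41 to 29.1% PT. These shares are a description chosen after their values were seen, with no test. Without T cell_2 the lymphoid class was 7.40% ± 3.48 against 4.23% ± 2.21 in control, and the immune class 61.1% ± 0.36 against 6.36% ± 1.85. Over cells named T cell or NK in both annotations, T cell_1 made up 59.2% of T cells in IRF4 and 55.2% in IRF7, within the control range of 39.1 to 62.1%.

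**Figure D5:**
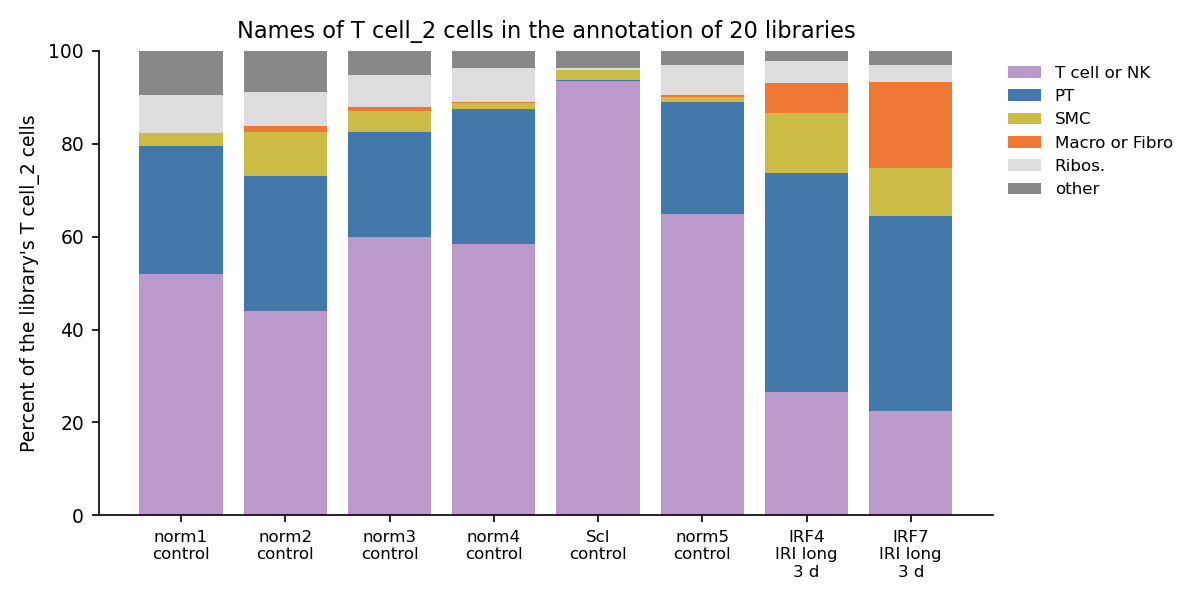
Each bar takes the T cell_2 cells of 1 library as 100% and divides them by their name in the second annotation of 20 libraries. T cell or NK is 22.5 to 26.6% of the bar in IRF4 and IRF7 and 43.9% or more in the control libraries, and PT is the largest segment in both IRI long libraries.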

How the data were processed

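For each cell the authors deposited a cluster name and a treatment label with its day. Per the submitters' methods, reads were aligned with Cell Ranger, cells were filtered by gene number and mitochondrial percentage, doublets called by DoubletFinder were removed, libraries were integrated with LIGER and clusters were named by hand. Ambient RNA was left uncorrected. For the integration with the inhibitor-treated libraries the paper names the same filters, doublet removal and LIGER, but for another cell number than the second annotation holds. The UMAP coordinates were not used, and gene expression was not analysed here.

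Cells were counted per library, the shared part of the cell names. Each library took its group from its cells' treatment label. Depth here means cells per library (2064 to 14320 among the libraries compared), and Clopper-Pearson intervals cover counting error only. Cluster fractions were compared with limma 3.58.1 (R 4.3.3) after a logit transform, with 0.5 added to each cell count and a mean for each of 7 groups, with Benjamini-Hochberg adjustment over 18 clusters (19 in the second annotation) and a threshold of 0.05. The limma script was tested on simulated data. Classes and shares within classes (libraries with at least 10 cells in the denominator) were tested with exact two-sided permutations (scipy 1.17.1), adjusted over 7 classes and 8 shares. The paper's own proportion test permutes cells, whereas libraries are the replicates here. Python 3.11.15, pandas 2.3.3, numpy 2.4.6 and matplotlib 3.10.9 were used.

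All 18 clusters were described. In comparisons with other IRI groups those past the threshold were named (with none, the smallest p), and in the second annotation those past it with no namesake. Members and lists were chosen with earlier results of these data known. Alternatives were other scales, denominators, weights, filters, thinning to 2064 cells, other sets of libraries, the barcode set as a term, the second annotation and leaving out each library. Chosen after seeing the data were cells of 1 class in both annotations, a denominator without myeloid cells, Fibro counted as myeloid, folds without 1 library, and T cells with or without T cell_2.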

Additional observations from a re-analysis of the deposited data

Results flagged for a closer look

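The fraction of a cluster at 3 d after long ischemia differed, in 5 comparisons that tested the difference itself, from another day after the same ischemia time. Mono_2 was higher at 3 d than at 1 d by 2.23 and than at 14 d by 1.97 on the logit scale. Against 14 d, Myofib was higher at 3 d by 4.40, Endo by 1.86 and PC by 1.69. The size of the Myofib change rests on 2 cells in IRF12 and 1 cell in IRF9 at 14 d. Mono_2 held 10 cells in IRF1 and 2 in IRF5 at 1 d, and 5 in IRF12 and 8 in IRF9 at 14 d. The call of Mono_2 against 1 d was lost with only the 4 libraries of both groups, with immune and other clusters apart (limma adjusted p = 0.0648) and without IRF5 or IRF7. Against 14 d those of PC, Endo and Mono_2 were lost on the centred log-ratio and without IRF12 or IRF7, and that of Mono_2 without IRF9. PC is the one of these clusters that did not pass the threshold against control at 3 d. A fixed rule for a control library apart from the other 5 flagged none in 31 sets of fractions, all from the main annotation. Norm5 was still the lowest control library for PT S3, at 11.5%, with 27.0% in norm1 as the next lowest. It was also the highest for NK in the second annotation, at 5.30% against a control median of 1.25% and 2.07% in norm4, the next highest. The rule was not run on the second annotation.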

How the results depend on the processing

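The count of 16 clusters that differed from control was 13 to 16 under all alternatives and 13 to 16 when 1 library was left out. This count hides calls in opposite directions. T cell_1 was called lower on the centred log-ratio and with immune and other clusters apart, but higher without myeloid cells in the denominator. PC was called lower on the centred log-ratio and higher with immune and other clusters apart. Without myeloid cells in the denominator LOH was not called. Podo and T cell_2 were the 2 clusters lost against norm5 alone and with the barcode set as a term (14 clusters each). In the former, control is 1 library, assumed to vary like the libraries of the other groups. Directions turned for GEC (−0.42), T cell_1 (−0.94) and T cell_2 (−0.22) on the centred log-ratio, for PC (0.90), T cell_1 (−1.95), T cell_2 (−1.27) and B cell (−0.73) with immune and other clusters apart, for T cell_1 against norm5 alone (−0.21) and with the barcode set as a term (−0.21), and for PC without myeloid cells in the denominator (0.49).

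Against IRI long 1 d the count of 1 was 0 with only the 4 libraries of both groups, 8 with the arcsine square root, 3 with the centred log-ratio, 0 with immune and other clusters apart, and 0 to 2 without 1 library. Against IRI long 14 d the count of 4 was 8, 9 and 1 under the first 3 of these, 5 with immune and other clusters apart (PT S3 added, lower at 3 d) and 1 to 4 without 1 library. Against IRI short 3 d it was 1 with the arcsine square root, Mono_1, and 0 otherwise. In the second annotation it was 13 to 16 without 1 library.

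Per non-immune or per immune cell the class differences, in percentage points, were −30.6 for PT, −7.91 for the distal tubule, 30.0 for endothelial cells, 28.2 for granulocytes, 23.4 for monocytes and macrophages (none with an adjusted exact permutation p under 0.05) and −51.5 for lymphoid cells, which turned the direction. Against norm5 alone they were −23.3 for PT, −40.0 for the distal tubule, 2.65 for lymphoid cells and 53.4 for all immune cells, and for shares within a class −7.51 for PT S1 of PT, −4.15 for T cell_1 of T cells and 16.9 for B cell of lymphoid cells. T cell_1 of T cells turned to 4.45 over cells named T cell or NK in both annotations. Without 1 library the differences ran from −46.4 to −38.8 for PT, −29.0 to −23.7 for the distal tubule, 5.07 to 7.72 for endothelial cells, 19.5 to 23.5 for granulocytes, 25.9 to 34.3 for monocytes and macrophages, 5.48 to 12.1 for lymphoid cells and 59.2 to 61.7 for all immune cells. The smaller number of placements raised the adjusted p to as much as 0.167 for the classes that had passed, and without norm5 lymphoid cells reached 0.0476. The cause of the other changes was not tested.

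No paired analysis was possible because the cell names carry no replicate number of the sample list. With 2 libraries in IRI long 3 d, the cells of IRF7 (2064) and of small clusters limit the precision.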
